A study of Mus musculus and Ictidomys tridecemlineatus with 36 samples.

Results

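The genes for axon guidance ligands and receptors were examined for CUT&RUN peaks in the mouse retina. They are the autosomal protein-coding genes of GENCODE release M21 whose symbols belong to 8 families. These are the class 3 to 7 semaphorins (Sema, 20 genes), the plexins (Plxn, 7), the Eph receptors (14), the ephrins (Efn, 7), the Slits (3), the Robo receptors (4), the netrins (Ntn, 4) and the Unc5 receptors (4). The rule found 63 of 20807 autosomal protein-coding genes, and it used symbols only. The 3 matching genes on the X chromosome (*Plxna3*, *Plxnb3*, and *Efnb1*) were left out.

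In CUT&RUN an antibody directs a nuclease to a histone mark or DNA-bound protein, and the fragments it cuts free are sequenced. The series holds 36 libraries from 13-lined ground squirrel (13LGS) and mouse retina, of which 18 mouse libraries of 5 targets and 2 mouse IgG controls lie behind the values below. All mouse libraries came from nuclei of frozen whole retinas at postnatal day 2 (P2), with no treatment or genotype given in the labels, as 2 biological replicates that each pooled the retinas of 3 animals. The targets were H3K4me3, H3K27ac, and H3K4me1 (2 libraries each), Neurod1 (4), and Otx2 (8, of which 4 used an R&D Systems and 4 an Atlas antibody). A pool of whole retinas mixes all retinal cell types, so a peak does not say which cells carry it, and a weak mark in many cells cannot be told apart from a strong mark in few.

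Each target has 1 deposited peak list for all its libraries. The lists hold 14069 peaks for H3K4me3, 62930 for H3K27ac, 135798 for H3K4me1, 29115 for Otx2, and 4744 for Neurod1. The value given for a peak is its fold enrichment, the ratio of pooled signal to IgG that the authors' peak caller reported, and every listed peak passed their q-value threshold of 0.05. There is 1 value per peak, so no spread between replicates exists, read depth is unknown, and no difference below carries a test. Fold enrichments of different targets depend on different antibodies and were not compared with each other. A gene was counted as having a peak at a transcription start site (TSS) when a peak came within 1 kb of any annotated TSS. Peaks anywhere else between the gene's ends were counted as gene body peaks.

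As background, growing axons read guidance cues through receptors on the growth cone. Semaphorins signal mainly through plexins, ephrins through Eph receptors, Slits through Robos, and netrins through Dcc and, for repulsion, Unc5 receptors. In the retina, ephrins and Ephs are known for laying out the map of ganglion cell axons in the brain, netrin 1 for guiding those axons into the optic nerve, and semaphorins and plexins for sorting neurites into layers. H3K4me3 marks promoters, H3K4me1 marks enhancers and the flanks of promoters, and H3K27ac marks the active ones among both. Otx2 and Neurod1 are transcription factors (TFs) of photoreceptor and bipolar cell development, and Neurod1 is also present in amacrine cells.

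Some of the strongest TF peaks in the bodies of these genes are shown first as sequence, because several results below return to them. Each is the 300 bases around the peak summit in GRCm38, with TAATCC, a core bound by Otx2, and CAGATG, an E-box bound by Neurod1, in capitals on either strand (GGATTA and CATCTG when read from the opposite strand). The *Sema3f* and first *Robo2* windows are the 2 highest Otx2 peaks in a guidance gene body, at 14.0-fold and 13.8-fold. The second *Robo2*, *Epha8*, and *Epha1* windows are centred on Neurod1 peaks of 8.97-fold, 18.7-fold, and 10.1-fold, and the *Ephb2* window on the second highest Neurod1 body peak, at 13.2-fold.
Sema3f, Otx2, chr9:107697952-107698251, plus strand: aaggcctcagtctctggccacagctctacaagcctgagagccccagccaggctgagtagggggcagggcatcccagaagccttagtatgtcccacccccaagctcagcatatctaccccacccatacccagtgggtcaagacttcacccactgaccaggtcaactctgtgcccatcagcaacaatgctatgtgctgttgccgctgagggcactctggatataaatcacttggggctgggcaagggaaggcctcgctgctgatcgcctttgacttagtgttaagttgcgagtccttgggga
Robo2, Otx2, chr16:74330684-74330983, plus strand: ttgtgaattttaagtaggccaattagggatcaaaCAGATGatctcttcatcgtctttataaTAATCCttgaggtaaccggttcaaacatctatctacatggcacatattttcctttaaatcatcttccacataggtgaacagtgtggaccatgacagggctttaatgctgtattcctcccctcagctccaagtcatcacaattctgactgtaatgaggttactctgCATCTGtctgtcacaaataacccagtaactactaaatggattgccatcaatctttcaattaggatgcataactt
Robo2, Neurod1, chr16:74375546-74375845, plus strand: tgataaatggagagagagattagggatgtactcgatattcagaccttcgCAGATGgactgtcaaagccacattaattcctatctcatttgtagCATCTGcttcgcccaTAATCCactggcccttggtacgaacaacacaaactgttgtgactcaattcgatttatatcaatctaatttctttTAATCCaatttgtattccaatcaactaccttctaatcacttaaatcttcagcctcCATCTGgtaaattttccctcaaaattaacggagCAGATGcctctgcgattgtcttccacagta
Epha8, Neurod1, chr4:136945254-136945553, plus strand: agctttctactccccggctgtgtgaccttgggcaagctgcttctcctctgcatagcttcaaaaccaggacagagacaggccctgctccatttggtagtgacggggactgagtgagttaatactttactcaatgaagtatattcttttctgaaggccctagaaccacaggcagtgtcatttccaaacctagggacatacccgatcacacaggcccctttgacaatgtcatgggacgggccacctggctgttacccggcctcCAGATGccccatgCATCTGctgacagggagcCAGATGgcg
Ephb2, Neurod1, chr4:136698950-136699249, plus strand: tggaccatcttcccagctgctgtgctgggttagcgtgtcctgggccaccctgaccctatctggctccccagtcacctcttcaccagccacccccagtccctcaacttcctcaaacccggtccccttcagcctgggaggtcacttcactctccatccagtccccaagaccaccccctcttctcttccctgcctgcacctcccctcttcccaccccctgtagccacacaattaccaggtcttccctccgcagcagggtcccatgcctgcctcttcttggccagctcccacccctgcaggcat
Epha1, Neurod1, chr6:42370803-42371102, plus strand: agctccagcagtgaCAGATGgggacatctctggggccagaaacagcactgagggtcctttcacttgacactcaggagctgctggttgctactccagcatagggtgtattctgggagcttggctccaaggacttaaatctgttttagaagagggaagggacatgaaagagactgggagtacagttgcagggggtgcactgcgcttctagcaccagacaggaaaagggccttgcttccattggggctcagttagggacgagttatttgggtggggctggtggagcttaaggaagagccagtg

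All of these summits lie in introns. The first *Robo2* window holds 1 TAATCC and 2 CAGATG, and the second *Robo2* window, where an Otx2 peak of 9.38-fold overlaps the Neurod1 peak, holds 2 TAATCC and 4 CAGATG. The *Epha8* window holds 3 CAGATG, which start 110, 123, and 141 bases after the summit. The *Epha1* window holds 1 CAGATG, and the *Ephb2* window neither motif. The *Sema3f* window also holds neither, although its peak has the highest Otx2 fold enrichment of any guidance gene.

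H3K4me3 was present at a TSS of 52 of the 63 guidance genes (82.5%), against 57.1% of all genes. With only peaks of −log10 q 5 or more, it was at 48 (76.2%), against 55.1%. *Slit1*, *Sema3e*, *Sema4f*, and *Unc5d* lost the mark under that limit. The guidance genes are long, with a median of 46.3 kb against 17.6 kb for all genes, and have more annotated TSSs, a median of 5 against 3. Among genes of at least 50 kb, H3K4me3 was present at 27 of 31 guidance genes (87.1%) and at 75.3% of all such genes, so the gap was smaller there. The limit of 50 kb is a minimum only and does not match the lengths above it. Where present, the mark was not higher than elsewhere. The median of the highest fold enrichment per gene was 16.0 for guidance genes and 17.6 for all genes. Its widest peak was broader, with a median of 2099.5 bp against 1586 bp, and of 2181 bp against 1734 bp in genes of at least 50 kb. None of the H3K4me3 peaks at guidance gene TSSs came within 1 kb of a TSS of another protein-coding gene.

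**Figure D1:**
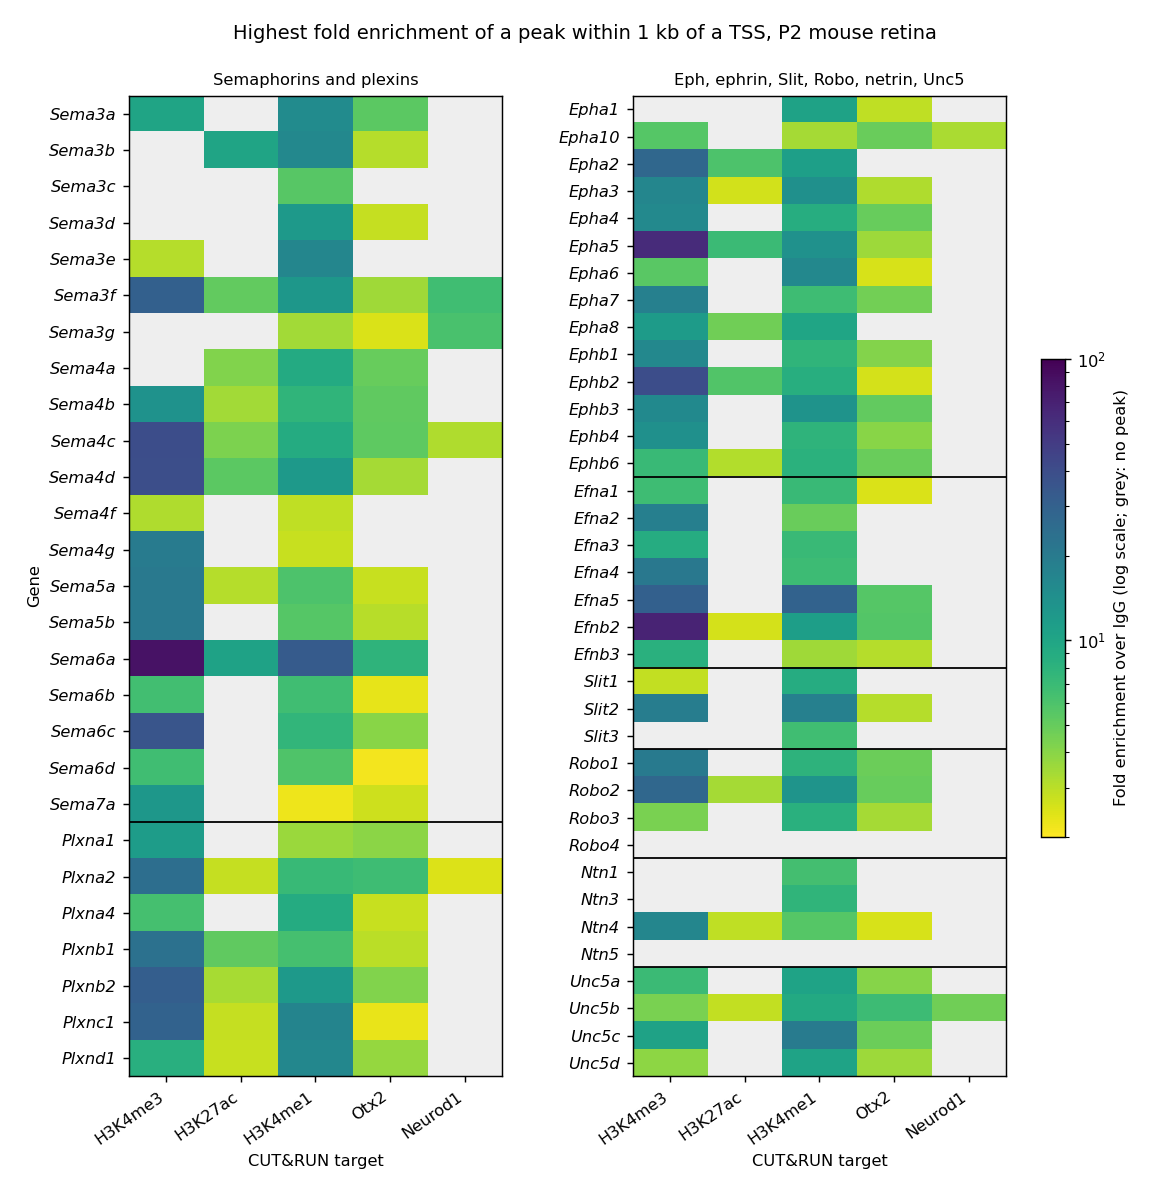
Highest fold enrichment over IgG (colour, log scale) of a peak within 1 kb of a TSS, for each of the 63 guidance genes (rows, grouped by family with black lines) and each of the 5 targets (columns) in P2 mouse retina; grey means no peak. The H3K4me1 column is filled for 61 genes, the H3K27ac column for 23, and the Neurod1 column for 6.

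In the ligands, H3K4me3 was present at 25 of 34 genes, and in the receptors at 27 of 29. The semaphorins had the widest range. *Sema6a*, a transmembrane semaphorin that binds class A plexins, had the highest H3K4me3 fold enrichment of all guidance genes, at 83.1. H3K27ac reached 6.78 at the same TSS and 10.5 at another TSS inside the gene. H3K4me1 reached 13.2 at the same TSS and 32.8 at a TSS inside the gene, and Otx2 reached 7.86. *Sema3e*, the secreted ligand of Plxnd1, had the lowest H3K4me3 of its family, at 3.11, although its H3K4me1 reached 16.7. *Sema4f* was close to it, at 3.21. All 7 plexins carried H3K4me3, from 6.36 at *Plxna4* to 31.1 at *Plxnb2*.

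Among Eph receptors, *Epha5*, one of the receptors of the retinal map, stood highest at 62.0, with an H3K4me3 peak 5827 bp wide, H3K27ac at 6.92, and H3K4me1 at 13.8. *Epha6* was lowest among the Eph receptors with a peak, at 5.46. Each of the 7 ephrins had H3K4me3. *Efnb2*, a transmembrane ephrin found in dorsal retina, had the highest, at 67.8, and *Efna1* the lowest, at 6.74. Acetylation at *Efnb2* was low, with H3K27ac at 2.59, and its H3K27ac and H3K4me3 peaks did not overlap.

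The Slit and Robo families were uneven. *Slit2* had H3K4me3 at 19.2, *Slit1* at 2.87, the lowest value of any guidance gene, and *Slit3* had none. The *Slit1* peak was near the threshold, with a −log10 q of 2.60. *Robo2*, the main Slit receptor of retinal ganglion cells, had 27.3, *Robo1* had 20.2, *Robo3* had 4.38, and *Robo4*, a receptor of endothelial cells, had no peak of any target at a TSS or in its body. Of the 4 netrins only *Ntn4* had H3K4me3 at a TSS, at 16.7. The 4 Unc5 receptors all had it at modest levels, from 3.87 at *Unc5d* to 10.6 at *Unc5c*.

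The 11 genes without H3K4me3 at a TSS were *Sema3b*, *Sema3c*, *Sema3d*, *Sema3g*, *Sema4a*, *Epha1*, *Slit3*, *Robo4*, *Ntn1*, *Ntn3*, and *Ntn5*. H3K4me1 was present at a TSS of 9 of them, all but *Robo4* and *Ntn5*. The H3K4me1 peaks at *Sema3g* and *Ntn3* also came within 1 kb of a TSS of a neighbouring gene, *Nisch* and *Tbc1d24*. *Sema3b* and *Sema4a* had H3K27ac without H3K4me3. At *Sema3b* an H3K27ac peak of 10.2-fold and 4991 bp covered chr9:107608410-107613400, inside an H3K4me1 peak of 16.1-fold, with its summit upstream of the TSS. At *Sema4a* the H3K27ac peak reached 4.19-fold. *Ntn1*, the netrin of the optic disc, had H3K4me1 at 6.45 at a TSS and 11 H3K4me1 peaks in its body, but no H3K27ac at either place.

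The base composition of the start sites differed with the mark. For each gene the highest ratio of observed to expected CpG within 1 kb of a TSS was taken. H3K4me3 was counted at any TSS, so the mark and the ratio may come from different TSSs of a gene. A gene with more TSSs also has more windows from which the highest ratio is taken. This ratio had a median of 0.642 in the 52 guidance genes with H3K4me3 and 0.381 in the 11 without, and 0.658 and 0.228 in all genes. A ratio of at least 0.6, a limit chosen after the values were seen, was found in 39 guidance genes, of which 36 (92.3%) had H3K4me3, against 92.8% of all genes with such a ratio. Below it, H3K4me3 was present at 16 of 24 guidance genes (66.7%), against 33.6% of all genes below it. The limit does not match the ratios below it. Those 16 guidance genes had ratios from 0.430 at *Sema4f* to 0.574 at *Sema3a*, while all genes without H3K4me3 had a median of 0.228. The shares below the limit therefore do not compare genes of equal ratio. The 3 genes with a high ratio and no H3K4me3 were *Slit3* (0.670), *Sema3c* (0.713), and *Ntn1* (0.794). The other 8 without the mark had ratios from 0.160 at *Robo4* to 0.494 at *Ntn3*.

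**Figure D2:**
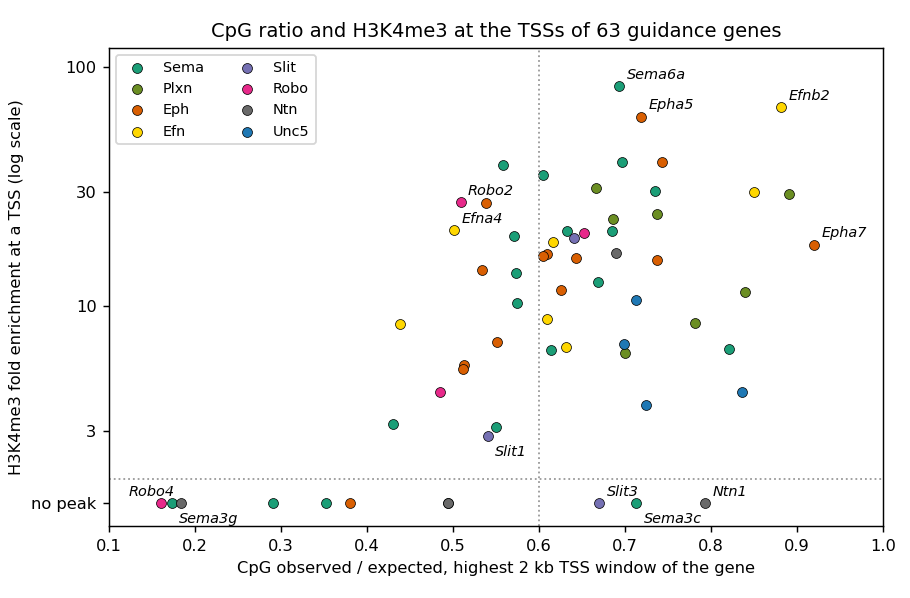
CpG observed over expected in the highest of each gene's TSS windows (horizontal axis) and highest H3K4me3 fold enrichment at a TSS (vertical axis, log scale; genes without a peak are drawn on the lowest row) for the 63 guidance genes, coloured by family. *Slit3*, *Sema3c*, and *Ntn1* are the 3 genes on the lowest row to the right of the vertical line at 0.6.

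The 150 bases before the first TSS of *Epha5* and *Robo4* are shown as a gene with H3K4me3 and a high ratio (0.719) and the gene with the lowest ratio (0.160), with CG in capitals. The *Epha5* stretch holds 14 CG and the *Robo4* stretch 1.
Epha5, chr5:84417383-84417532, minus strand: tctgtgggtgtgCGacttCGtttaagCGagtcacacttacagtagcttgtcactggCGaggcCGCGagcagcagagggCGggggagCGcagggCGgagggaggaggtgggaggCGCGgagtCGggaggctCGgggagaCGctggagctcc
Robo4, chr9:37401747-37401896, plus strand: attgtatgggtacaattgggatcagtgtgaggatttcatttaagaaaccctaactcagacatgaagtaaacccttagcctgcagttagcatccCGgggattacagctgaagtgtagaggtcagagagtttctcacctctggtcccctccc

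H3K4me1 was the most common mark at guidance gene TSSs. It was found at 61 of 63 genes (96.8%), against 64.8% of all genes, and at 31 of the 31 guidance genes of at least 50 kb, against 85.9% of all genes of that length. Its median fold enrichment was 8.66, against 5.63 for all genes, and its widest TSS peak had a median of 3706 bp against 1589 bp. In genes of at least 50 kb these medians were 9.36 against 7.40, and 4047 bp against 2170 bp. The widest H3K4me1 peak at a TSS of *Sema6a* was 22821 bp and lay at a TSS inside the gene. At the *Sema6a* TSS with the highest H3K4me3, the H3K4me1 peaks were 4866 bp and 2949 bp wide. The widest of *Efnb2* was 22785 bp, at chr8:8637835-8660619.

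H3K27ac was found at a TSS of 23 guidance genes (36.5%), against 23.1% of all genes. Among genes of at least 50 kb the share was not higher, with 11 of 31 guidance genes (35.5%) against 38.0%. H3K4me3 and H3K27ac were both present at 21 guidance genes (33.3%) against 21.2% of all genes, and at 11 of the long ones (35.5%) against 35.7%. The 2 marks need not share a TSS. Peaks of both that overlapped each other were found at 15 guidance genes (23.8%), against 16.6% of all genes. These were *Sema4b*, *Sema4c*, *Sema5a*, *Sema6a*, *Plxna2*, *Plxnb1*, *Plxnb2*, *Plxnc1*, *Epha3*, *Epha5*, *Epha8*, *Ephb2*, *Ephb6*, *Robo2*, and *Ntn4*. The largest class, with 31 genes (49.2%), had H3K4me3 and H3K4me1 and no H3K27ac, against 32.1% of all genes. Of the long guidance genes 16 (51.6%) were in this class, against 37.3% of long genes. These shares also count genes without H3K4me3, which was itself more common at guidance genes. Of genes with H3K4me3, the class held 31 of 52 guidance genes and 6687 of all 11872. Among long genes with H3K4me3 it held 16 of 27 and 1784 of 3603. H3K4me3 with H3K27ac held 21 of the 52 and 4414 of the 11872, and 11 of the 27 and 1710 of the 3603.

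Acetylation was uneven between families. H3K27ac was at a TSS of 5 of 7 plexins and 8 of 20 semaphorins, but of 1 of 7 ephrins and none of the 3 Slits. When a −log10 q of 5 or more was required, H3K27ac was at a TSS of 13 guidance genes (20.6%) against 12.8% of all genes. Under that limit it was at 2 of 7 plexins, 6 of 20 semaphorins, and no ephrin or Slit.

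**Figure D3:**
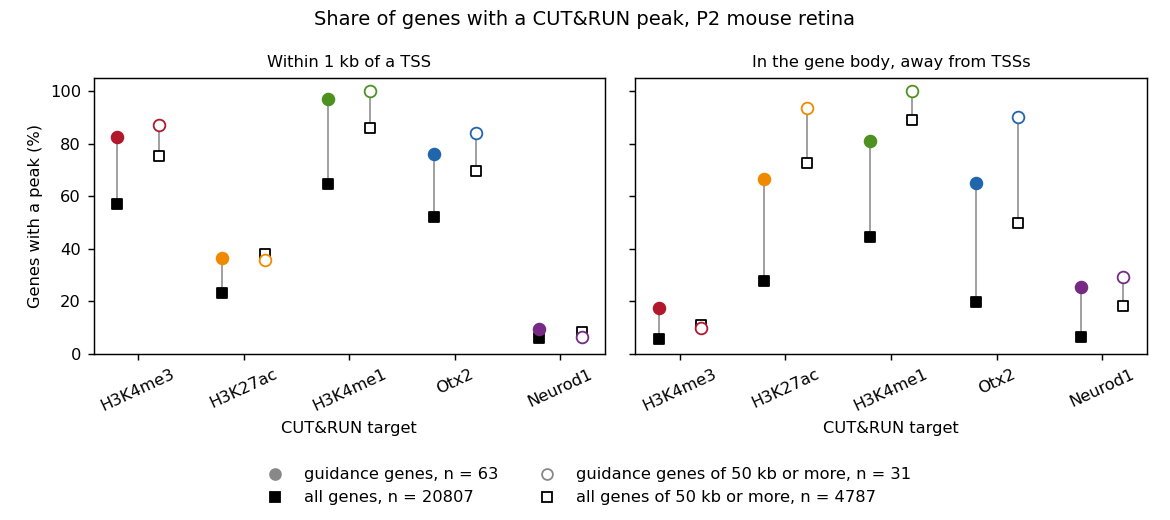
Share of genes with a peak (vertical axis, %) for each target within 1 kb of a TSS (left) and in the gene body (right). Circles are guidance genes and squares all genes, filled for genes of any length and open for those of at least 50 kb. In the left panel the open circle and square of H3K27ac lie close together at 35.5% and 38.0%.

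Otx2 peaks lay at a TSS of 48 guidance genes (76.2%), against 52.2% of all genes. With only peaks of −log10 q 5 or more, the count was 36 (57.1%), against 43.0%. Without that limit, genes of at least 50 kb gave 26 of 31 (83.9%) and 69.5%. Fold enrichments of Otx2 at TSSs were low, with a median of 3.65 against 3.98 in all genes. The highest value was 7.86 at *Sema6a*. Of the 69 Otx2 peaks at guidance gene TSSs, 53 (76.8%) overlapped H3K4me3, against 87.3% in all genes. H3K4me3 itself was at a TSS of 82.5% of guidance genes and 57.1% of all genes. The Otx2 shares are therefore not separate from those of H3K4me3. TAATCC was found within the 300 bases around 7 of the 69 summits (10.1%), against 9.67% at the TSSs of all genes.

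Neurod1 was rare at guidance gene TSSs, with 6 genes (9.52%) against 6.00% of all genes, and with 2 of the long genes (6.45%) against 8.36%. The 6 were *Sema3f* (6.63-fold), *Sema3g* (6.12), *Unc5b* (4.67), *Epha10* (3.27), *Sema4c* (3.20), and *Plxna2* (2.48). All 7 Neurod1 peaks at these TSSs overlapped an Otx2 peak, as did 92.8% of those at the TSSs of all genes. *Sema3g*, a secreted semaphorin, was the only one of the 6 without H3K4me3. Its Neurod1 and Otx2 peaks also lay within 1 kb of a TSS of the neighbouring gene *Nisch*. CAGATG was found around 2 of the 7 summits (28.6%), against 36.7% at the TSSs of all genes.

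Gene bodies gave a different picture from start sites. H3K4me3 in the body was uncommon, at 11 guidance genes (17.5%) against 5.68% of all genes, and at 3 of the long ones (9.68%) against 10.9%. The body of *Ntn3*, which had no H3K4me3 at its own TSSs, held an H3K4me3 peak of 11.5-fold and an Otx2 peak of 3.01-fold, and both came within 1 kb of a TSS of the neighbouring gene *Tbc1d24*. H3K27ac was found in the body of 42 guidance genes (66.7%) against 27.6% of all genes, and of 29 of the 31 long ones (93.5%) against 72.6%. H3K4me1 was found in the body of 51 (81.0%) against 44.6%, and of all 31 long ones (100%) against 89.1%. Otx2 was found in the body of 41 (65.1%) against 19.5%, and of 28 long ones (90.3%) against 49.8%. Neurod1 was found in the body of 16 (25.4%) against 6.33%, and of 9 long ones (29.0%) against 18.1%.

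Length still differs within the long genes, so peaks were also counted per 100 kb of gene body. With peaks and lengths summed over genes, the guidance genes of at least 50 kb held 10.3 H3K4me1 peaks per 100 kb, against 6.76 in all genes of that length. For Otx2 the summed values were 1.27 and 0.836, for H3K27ac 4.32 and 4.13, and for Neurod1 0.164 and 0.192. The median gene gave a wider gap for H3K27ac, at 2.89 peaks per 100 kb in long guidance genes and 1.92 in all long genes, and for H3K4me1 the medians were 10.98 and 5.37. Over all 63 guidance genes, whatever their length, the median gene held 8.64 H3K4me1 peaks and 1.40 H3K27ac peaks per 100 kb, against 0 for both marks over all genes. With only H3K27ac peaks of −log10 q 5 or more, 27 of the 63 guidance genes (42.9%) kept one in the body, against 17.0% of all genes. The median density over the 63 was then 0. In genes of at least 50 kb, 22 guidance genes (71.0%) kept one, against 50.6% of all such genes.

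The 1067 H3K4me1 and 449 H3K27ac body peaks were spread unequally over the genes. *Epha5* held the most H3K27ac, with 57 body peaks, followed by *Sema5a* with 55, *Plxna2* with 42, *Robo2* with 37, and *Sema4d* with 32. Of these, 15, 20, 10, 13, and 8 passed a −log10 q of 5. Their highest fold enrichments were 6.24 in *Epha5*, 10.3 in *Sema5a*, 10.3 in *Plxna2*, 8.35 in *Robo2*, and 8.58 in *Sema4d*. Per 100 kb, *Sema4d*, a semaphorin that binds B plexins, held the most H3K27ac, at 29.6. *Epha8* (25.5), *Plxna2* (21.1), *Sema3f* (17.3), and *Sema6a* (16.5) came next. *Epha8* and *Sema3f* are short, at 27.4 kb and 29.0 kb, and rank on 7 and 5 peaks. Only 2 peaks of each passed a −log10 q of 5.

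H3K4me1 peaks were most numerous in *Robo2* (107), *Robo1* (81), *Sema5a* (70), *Efna5* (68), and *Unc5c* (63). The 2 Robo genes differed in acetylation. *Robo1*, the longer of the pair at 737.8 kb, held 8 H3K27ac body peaks, while *Robo2*, at 520.0 kb, held 37. In *Efna5*, an ephrin of the retinal map, H3K4me1 covered 43.4% of the gene body, and 4 of its 68 H3K4me1 peaks overlapped H3K27ac.

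The Slits had H3K4me1 with little acetylation. Their bodies held 25 (*Slit1*), 25 (*Slit2*), and 44 (*Slit3*) H3K4me1 peaks, but 1, 1, and 3 H3K27ac peaks. This was not particular to the Slits. *Sema3a* held 33 H3K4me1 and 1 H3K27ac body peaks, and *Epha4* 28 and 2. *Epha7*, a receptor of A ephrins, held 8 H3K4me1 peaks and no H3K27ac in its body. Across all guidance genes 18.7% of H3K4me1 body peaks overlapped H3K27ac, against 24.1% in all genes. Seen from the other side, 68.2% of their H3K27ac body peaks overlapped H3K4me1, against 55.0% in all genes.

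**Figure D4:**
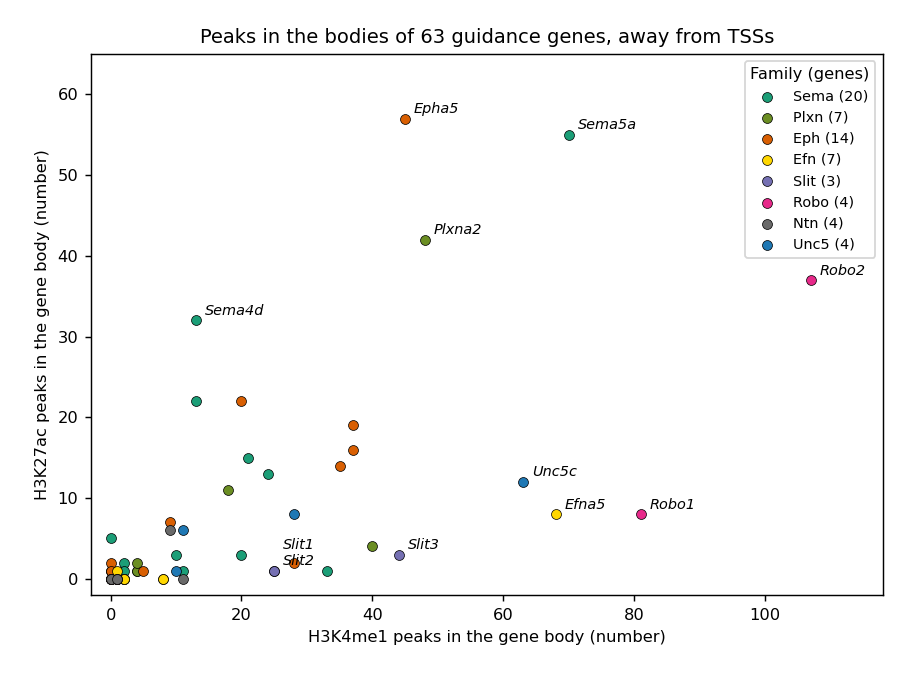
Number of H3K4me1 (horizontal axis) and H3K27ac (vertical axis) peaks in the body of each of the 63 guidance genes, 1 point per gene, coloured by family. *Epha5* and *Sema5a* are at the top with 57 and 55 H3K27ac peaks, and the 3 Slits are at the bottom with 1 to 3 (*Slit1* and *Slit2* share a point).

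The position of the body peaks of H3K27ac within the long genes also varied. These distances leave out the H3K27ac peaks within 1 kb of a TSS, which *Sema5a*, *Robo2*, and *Epha5* all had. In *Sema5a* the H3K27ac body peak nearest to the first TSS lay 72.5 kb away and the median body peak 351.9 kb away, in a gene of 451.5 kb. In *Robo2* the nearest body peak lay 78.1 kb and the median 288.5 kb away. In *Epha5* the nearest body peak lay 4.59 kb away and the median 237.2 kb away, in a gene of 362.6 kb.

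**Figure D5:**
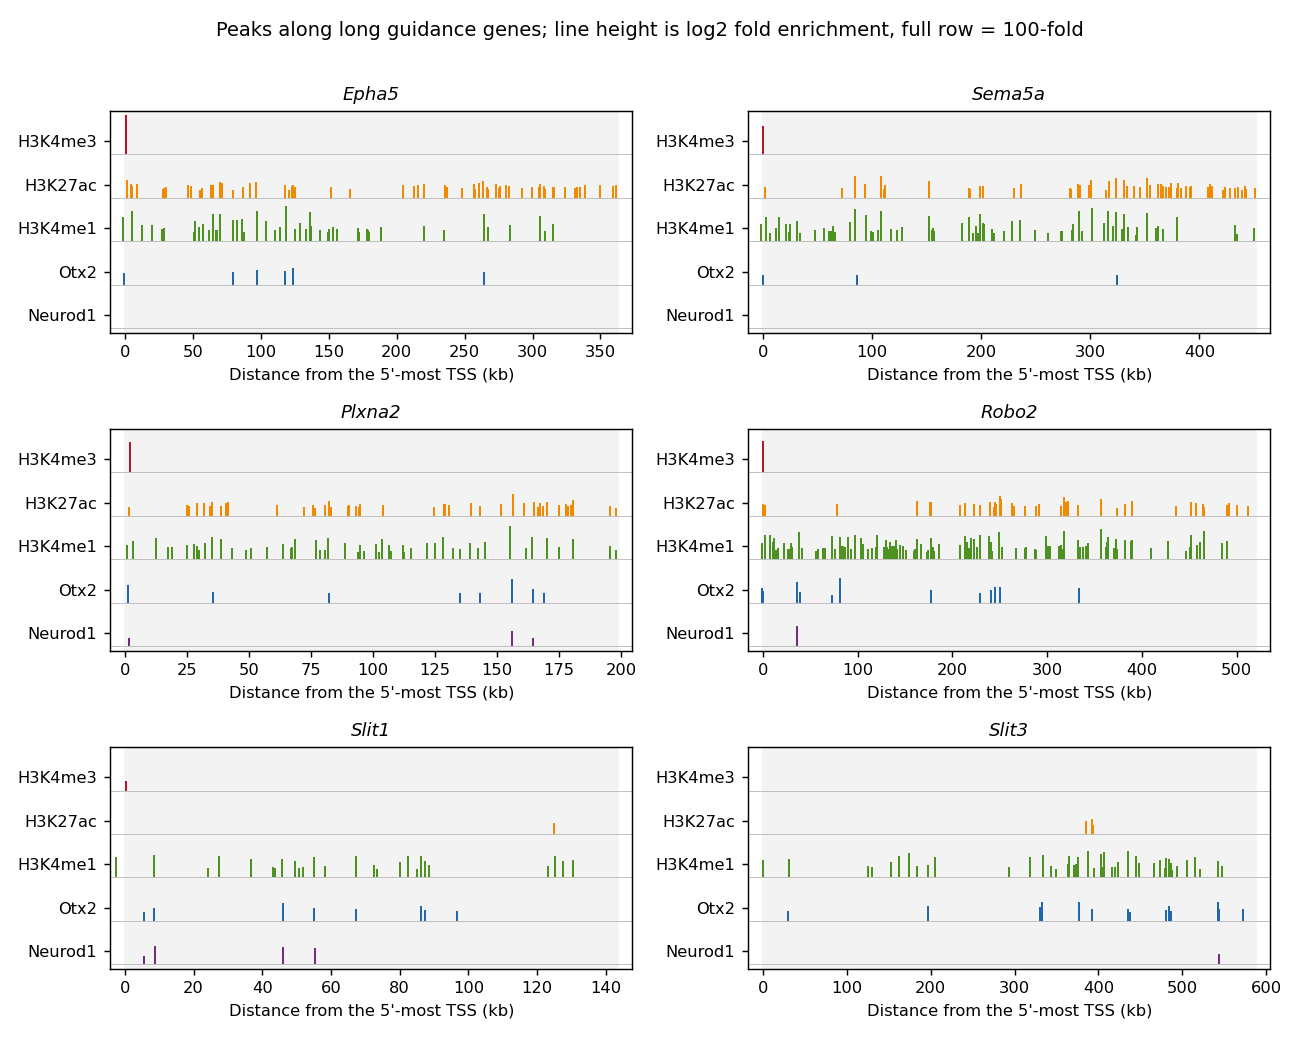
Peaks along *Epha5*, *Sema5a*, *Plxna2*, *Robo2*, *Slit1*, and *Slit3*, by distance of the summit from the first TSS (horizontal axis, kb); each row is a target, each line a peak whose height is its log2 fold enrichment, and grey shading is the gene. H3K27ac lines are dense in the first 4 genes and number 1 and 3 in *Slit1* and *Slit3*, where Otx2 lines number 8 and 15.

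The guidance gene bodies held 144 Otx2 peaks, of which 137 had their summit in an intron. The genes with the highest Otx2 fold enrichment after *Sema3f* and *Robo2* were *Plxna2* (13.2), *Ephb2* (12.4), *Robo1* (12.2), *Epha1* (9.84), *Efna5* (9.72), *Sema3a* (8.29), *Sema6a* (7.86, at a TSS), and *Slit3* (7.64). The *Sema3f* peak, at chr9:107697116-107698873, lay in H3K27ac of 4.62-fold and H3K4me1 of 12.6-fold. The *Robo2* peak, at chr16:74330388-74331093 and 80.1 kb from the nearest TSS, lay in H3K4me1 of 10.8-fold with no H3K27ac. The *Plxna2* peak, at chr1:194773293-194774867, lay in 10.3-fold H3K27ac and was overlapped by Neurod1 at 4.98-fold.

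By the marks beneath them, 12 of the 144 Otx2 body peaks overlapped H3K4me3, 56 (38.9%) H3K27ac without H3K4me3, 69 (47.9%) H3K4me1 alone, and 7 none of the 3. Over the Otx2 body peaks of all genes, 40.8% overlapped H3K27ac without H3K4me3 and 37.0% H3K4me1 alone. *Slit3* held the most Otx2 body peaks, at 15, and 13 of these lay in H3K4me1 alone. *Efna5* held 12, *Robo1* 11, and *Robo2* and *Sema5b* 10 each. In *Plxna2*, by contrast, 6 of 7 Otx2 body peaks lay in H3K27ac. TAATCC was found around 42 of the 144 summits (29.2%), against 24.9% of Otx2 body peaks in all genes and 18.2% of all autosomal Otx2 peaks.

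Neurod1 body peaks numbered 27, and 22 of them (81.5%) overlapped an Otx2 peak, against 75.7% in all genes. The highest was the *Epha8* peak, at chr4:136944249-136945855. It lay 11.4 kb from the nearest TSS, overlapped an H3K4me3 peak in the gene body, and was overlapped by Otx2 at 2.92-fold. *Epha8* encodes an ephrin A receptor and held 4 Neurod1 body peaks. Also on chromosome 4, *Ephb2*, a receptor of the ventral retina, held 2 Neurod1 body peaks, of 13.2-fold and 8.26-fold. Both lay in H3K27ac without H3K4me3. In *Epha1* the Neurod1 and Otx2 peaks, of 10.1-fold and 9.84-fold, overlapped in H3K4me1 of 10.5-fold without H3K27ac. Next in Neurod1 fold enrichment were *Robo2* (8.97), *Slit1* (6.83), *Sema3f* (6.63, at a TSS), *Sema5b* (6.60), *Sema3g* (6.12, at a TSS), *Plxna4* (5.33), and *Plxna2* (4.98).

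The body of *Slit1* held 8 Otx2 and 4 Neurod1 peaks. The Neurod1 peaks ranged from 2.44-fold to 6.83-fold. All 4 overlapped Otx2, and all 4 lay in H3K4me1 alone. CAGATG was found around 18 of the 27 Neurod1 body summits in guidance genes (66.7%), against 57.1% of those in all genes and 52.2% of all autosomal Neurod1 peaks.

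Co-receptors and downstream genes of the same pathways were counted in the same way, as a fixed list of 46 genes with a median length of 124.9 kb. The list also holds genes shorter than 50 kb, such as *Rras* (3687 bp) and *Mical1* (10719 bp). The sets compared next are therefore not alike in length. H3K4me3 was at a TSS of 43 (93.5%, against 75.3% of all genes of at least 50 kb), H3K27ac of 21 (45.7%, against 38.0%), and H3K4me1 of 45 (97.8%, against 85.9%). Otx2 was at a TSS of 39 (84.8%, against 69.5%) and Neurod1 of 6 (13.0%, against 8.36%). H3K4me3 was in the body of 5 (10.9%, against 10.9%). In the body, H3K27ac was found in 37 (80.4%, against 72.6%), H3K4me1 in 42 (91.3%, against 89.1%), Otx2 in 31 (67.4%, against 49.8%), and Neurod1 in 13 (28.3%, against 18.1%). *Dcc*, the netrin receptor, had H3K4me3 at 13.1, 59 H3K4me1 and 13 H3K27ac body peaks. *Nrp1* and *Nrp2*, the neuropilins that bind class 3 semaphorins, had H3K4me3 at 9.19 and 4.41 and no H3K27ac at a TSS.

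The retinal label was checked with marker genes, mainly by H3K4me3. H3K4me3 was at a TSS of 9 of 9 genes of retinal progenitors and neurons (24.9-fold to 159.4-fold) and of 3 of 3 ganglion cell genes (2.78 to 8.59). It was at none of 4 pigment epithelium, 5 microglia, and 2 erythroid genes, and at 1 of 5 endothelial genes, *Kdr* (55.2). Other marks were less selective. H3K4me1 was at a TSS of the endothelial genes *Cdh5* (14.6), *Kdr* (10.2), *Pecam1* (3.94), and *Tek* (2.10), but not of *Tie1*. The pigment epithelium gene *Best1* had H3K4me1 (5.14) and Otx2 (4.59). H3K27ac was at 8 of the 9 progenitor and neuron genes and at 0 of the 3 ganglion cell genes. The part of cells other than neurons in the peaks of the guidance genes was not tested.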

How the data were processed

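The deposited values used are the fold enrichment of each peak, a ratio of pooled signal to IgG computed by the authors, and its −log10 q-value, as deposited by the authors in 5 mouse peak lists. They trimmed reads with Trim Galore 0.6.4 and cutadapt 3.5, per the submitters' processing notes, aligned them to GRCm38 with Bowtie2, removed duplicates and blacklisted regions, and called peaks with macs2 at a q-value of 0.05 jointly over the libraries of a target. Replicates therefore cannot be compared or left out, no depth is given, and no paired analysis or test was made. How deep each library was can move the number of peaks in a list, so shares were compared within a target only.

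Peaks were joined to GENCODE M21 genes with pysam 0.24.0, pandas 2.3.3 and numpy 2.4.6 under Python 3.11.15. An overlap was at least 1 bp. A peak within 1 kb of any TSS of the gene belonged to its TSS, and others to its body. The code was checked on simulated intervals against bedtools 2.31.1. Motifs were counted on both strands in 300 bases around summits. Sequences are those of the RefSeq GRCm38 assembly. Plots were drawn with matplotlib 3.10.9.

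Genes named with values are the highest and lowest of each family by H3K4me3, those without H3K4me3, the 10 highest by Otx2 and by Neurod1, those with Neurod1 at a TSS, and the 5 with the most H3K27ac body peaks in number and per 100 kb. Other genes were named after their values were seen. The genes and lists were chosen with earlier results of these data known. The CpG limit of 0.6 and the requirement that H3K4me3 and H3K27ac overlap were added after seeing the data. The 13LGS lists were not used here, since genes were placed on the mouse genome only.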

Additional observations from a re-analysis of the deposited data

How the results depend on the processing

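Other settings were a TSS window of 500 bp or 2 kb, only the first TSS of each gene, summits in place of overlaps, only peaks of −log10 q 5 or more or of a fold enrichment of at least 2.5, peaks near other genes' TSSs left out, and peaks within 500 bp merged. Of 73 values, 65 stayed within 1.5 times the reported one and 8 did not. With the −log10 q limit, H3K27ac fell from 23 to 13 guidance genes at TSSs (20.6%, against 12.8% of all genes). In bodies it fell from 42 to 27 (42.9%, against 17.0%). H3K4me3 with H3K27ac fell from 21 to 11. H3K4me3 in bodies fell from 11 to 6 (9.52%, against 3.56% of all genes). In genes of at least 50 kb, 3.23% of guidance genes kept H3K4me3 in the body, against 6.27% of all genes. The median density of H3K27ac went from 1.40 to 0 peaks per 100 kb. With the first TSS only, H3K27ac was at 15 guidance genes (23.8%, against 16.0% of all genes) and H3K4me3 with H3K27ac at 13. With a 2 kb window, Neurod1 was at 10 guidance genes. The share of all genes was not computed for that window, nor for H3K4me3 with H3K27ac under the other settings. Those counts therefore cannot be set against all genes. The cause was not tested beyond the fewer peaks and TSSs or wider window that each setting takes. No paired analysis was possible because each list pools its libraries and the results come from no test. Unknown depth limits what the lack of a peak says: weak binding may lie below the threshold.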
